A study of Mus musculus with 2 samples.

Results

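The genes that add methyl groups to histone lysines and the genes that remove them were followed in X63/0 (X63-Ag8.653) cells, a mouse plasmacytoma line, meaning a tumour line of the antibody-secreting plasma cell. The set held 39 genes of 43346 features, chosen by name from the deposited gene table: 26 writers, counting the PRC2 subunits Eed and Suz12, and 13 erasers. All 39 were in the table. Total RNA, depleted of rRNA, was sequenced on an Ion Proton instrument from an untreated culture and from one kept for 3 h in 30 mM cycloleucine, an amino acid analogue that blocks the synthesis of S-adenosylmethionine (SAM) from methionine. The experiment is described as triplicated, and 1 library per group was analysed here. No difference below therefore has a replicate check, no p-value is given, and every interval is a 95% interval that covers counting error only, with no allowance for PCR copies, which are not independent molecules. Both groups are the same line in the same serum-containing medium, and no source used here says whether the untreated culture received a mock addition. In such bulk RNA, fewer cells of a type and less RNA per cell cannot be told apart.

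SAM is the methyl donor of every histone lysine methyltransferase, so these enzymes stand directly downstream of the step that cycloleucine blocks. All writers here with catalytic activity carry a SET domain, except Dot1l, whose fold is of another kind. Demethylases are of 2 chemistries that do not use SAM: Kdm1a and Kdm1b oxidise the methyl group with a flavin cofactor, and the JmjC enzymes use iron, oxygen and 2-oxoglutarate. H3K4 methylation marks promoters and enhancers, H3K36 methylation marks transcribed gene bodies, and H3K79 methylation accompanies active genes. H3K9 and H3K27 methylation mark heterochromatin and Polycomb-silenced genes, and H4K20 methylation follows replication and chromatin compaction.

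Reads assigned to genes numbered 27127865 without and 31951946 with cycloleucine. Mat2a, which encodes the SAM synthetase of most tissues, was at 71.2 RPKM (reads per kilobase of exon and per 1000000 gene reads) without and 182 with cycloleucine. Of 9 plasma cell markers 8 reached 1 RPKM in either library, with Xbp1 at 154 and 158 RPKM and Prdm1 at 7.71 and 7.91, and Cd38 did not, at 0.0489 and 0.0208. Of 7 B cell markers 2 did, Cd79b at 50.5 and 52.6 RPKM and Ms4a1 at 3.03 and 3.11, while Pax5 had 0 and 2 exon reads. No T cell, natural killer cell, myeloid or fibroblast marker did.

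Transcript levels of the writers and erasers were close in both libraries. On the scale log2(RPKM + 0.1), 37 of the 39 genes had enough signal to compare, by a minimum of 1 RPKM in either library and 50 exon reads over both. Of these, 3 genes (Whsc1l1, Setd2 and Kdm3a) were at least 1.2-fold higher in the cycloleucine library, where 13.0% of all 9613 compared features were, and 1 (Eed) was at least 1.2-fold lower, where 11.0% of all were. None reached 1.5-fold in either direction, where 3.03% of all features were higher and 2.47% lower. The median exon log2 fold change was -0.026 over the 37 genes and 0.0035 over all compared features. Their values ran from -0.27 to 0.38, inside the middle 95% of all features, which lay between -0.58 and 0.64. These genes were also read more deeply than most, with a median of 2556 exon reads over both libraries against 1321 for all compared features. Among the 7815 features with at least as many reads as the least read gene of the set, 9.42% were at least 1.2-fold higher and 7.60% lower, against 8.11% and 2.70% of the set. Both shares of the set were below the background, but with this floor the higher share was close to it. The lower share rested on 1 gene, and its count moved with the processing, as given at the end. The floor is a minimum and was not matched to the median depth of the set. The counting interval excluded 0 in 12 of the 37 genes (32.4%) and in 43.9% of all compared features.

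**Figure D1:**
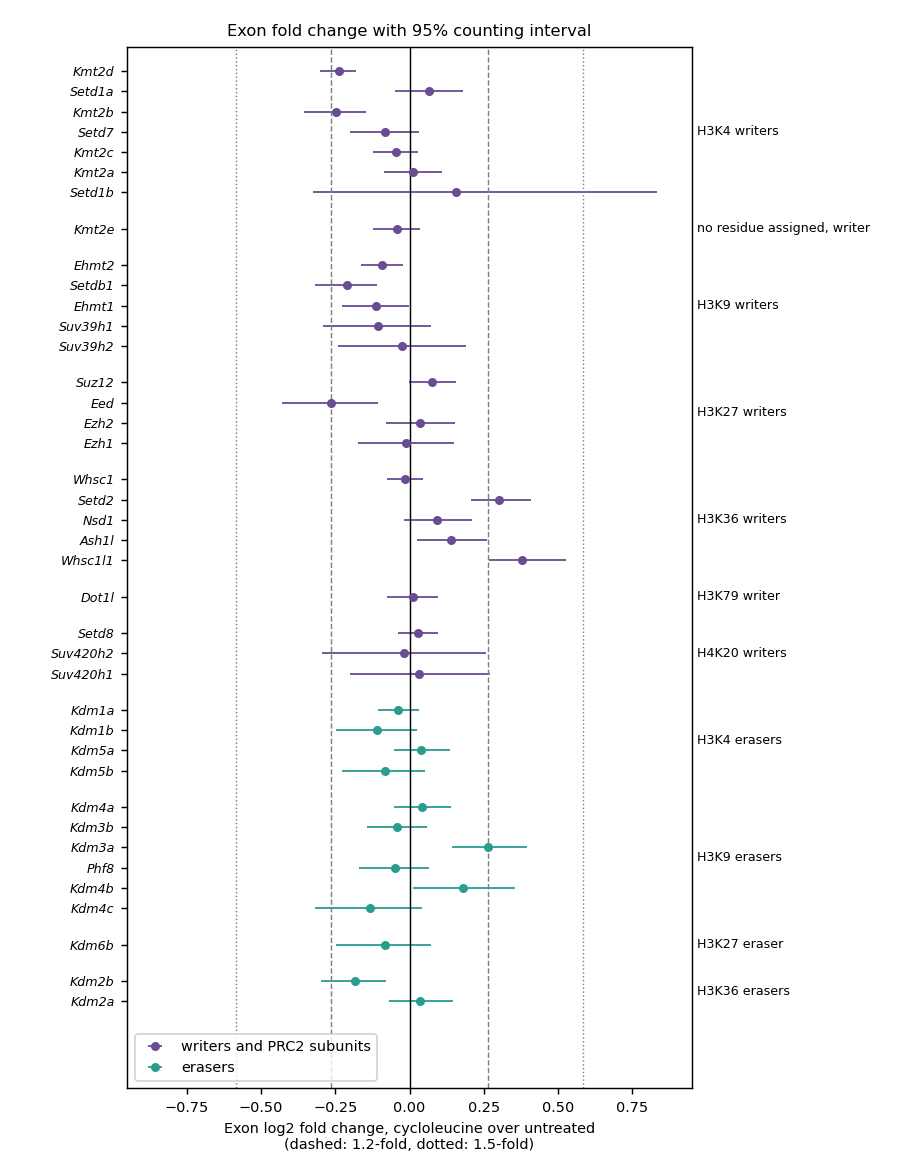
Exon log2 fold change of each writer and eraser gene, cycloleucine over untreated (x axis), with genes grouped by the residue they act on (y axis). Points are values from 1 library per group, bars are 95% counting intervals, dashed lines mark 1.2-fold and dotted lines 1.5-fold. Whsc1l1 lies highest at 0.38 and Eed lowest at -0.27, and the wide bar belongs to Setd1b, which has few reads.

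Whsc1l1 (now named Nsd3), an H3K36 methyltransferase of the NSD family at chr8:25601601-25719667 on the plus strand in mm10, differed most. Its level was 1.79 RPKM without and 2.35 with cycloleucine, and 800 and 1242 exon reads gave an exon log2 fold change of 0.38 (0.27 to 0.53). Setd2, the enzyme responsible for H3K36 trimethylation, at chr9:110532597-110618633 on the plus strand, was at 6.03 RPKM without and 7.46 with cycloleucine, and 1366 and 1991 exon reads gave 0.30 (0.21 to 0.41) on the same scale. The largest differences of the set thus belonged to writers of the same residue, and the intervals of both lie above 0. Kdm3a, a JmjC demethylase of H3K9 known as a target of the hypoxia response, at chr6:71588974-71632905 on the minus strand, was at 6.61 and 7.96 RPKM, or 0.27 (0.14 to 0.40). Eed, the PRC2 subunit that binds H3K27me3, at chr7:89954656-89980983 on the minus strand, was at 10.6 and 8.80 RPKM and -0.27 (-0.43 to -0.11). Kdm3a and Eed lay barely past 1.2-fold, which is 0.26 on the log2 scale. Kdm3a was at 0.24, under 1.2-fold, when libraries were scaled by exon reads, and Eed was at -0.18 from uniquely placed reads. Kmt2b and Kmt2d lay just short of 1.2-fold lower, at -0.25 and -0.24, and both were past it, at -0.28 and -0.27, with exon-read scaling.

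Promoter sequence was at hand for 27 of the 39 genes, as RefSeq windows (GRCm38.p6) of 300 bases that run from 250 before to 50 after a transcript start. It is shown for Setd2, Kdm3a and Eed, the genes past 1.2-fold that had one, to let the CpG content of the higher and lower genes be compared. Capitals mark CpG dinucleotides, which are the letters bound by the CXXC domains of Kmt2a, Kmt2b, Kdm2a and Kdm2b. For Kdm3a the window nearest to the deposited gene start, of 3 windows, is given. The windows lie at chr9:110532347-110532646 on the plus strand, chr6:71632868-71633167 on the minus strand and chr7:89980927-89981226 on the minus strand.
Setd2: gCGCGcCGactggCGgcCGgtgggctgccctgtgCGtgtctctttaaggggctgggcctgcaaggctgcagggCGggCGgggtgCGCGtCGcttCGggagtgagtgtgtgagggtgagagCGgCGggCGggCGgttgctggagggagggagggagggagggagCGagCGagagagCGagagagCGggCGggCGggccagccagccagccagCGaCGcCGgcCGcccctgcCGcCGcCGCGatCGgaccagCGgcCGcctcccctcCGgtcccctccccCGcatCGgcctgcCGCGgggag
Kdm3a: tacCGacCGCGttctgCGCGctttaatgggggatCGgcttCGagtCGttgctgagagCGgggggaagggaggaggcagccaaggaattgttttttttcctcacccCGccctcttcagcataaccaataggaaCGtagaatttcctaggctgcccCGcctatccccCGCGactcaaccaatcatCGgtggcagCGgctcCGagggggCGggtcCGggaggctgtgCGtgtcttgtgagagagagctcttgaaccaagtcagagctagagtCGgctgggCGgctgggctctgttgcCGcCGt
Eed: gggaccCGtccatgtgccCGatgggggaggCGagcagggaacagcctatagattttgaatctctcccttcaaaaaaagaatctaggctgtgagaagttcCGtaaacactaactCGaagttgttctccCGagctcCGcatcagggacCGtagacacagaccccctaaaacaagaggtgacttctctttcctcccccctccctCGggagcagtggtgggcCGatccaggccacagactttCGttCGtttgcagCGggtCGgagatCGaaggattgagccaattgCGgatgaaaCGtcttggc
The Setd2 window held 38 CpG dinucleotides, the Kdm3a window 24 and the Eed window 17, so the lower gene had the fewest in these 3 windows. In the count by gene Kdm3a was at 40, so its place beside Setd2 is not settled by the window shown. With 1 lower gene, this order does not compare higher and lower genes as groups. Over the 38 windows of the set the median was 28, against 22 over 8689 windows of compared features and 7 over all 32851 windows. At least 20 CpG dinucleotides were found in 71.1% of the set's windows, 58.5% of those of compared features and 26.5% of all. CpG-rich promoters were thus common in the set, as among expressed genes in general. The windows of Kmt2c (56 CpG dinucleotides) and Setd8 (51) were the richest, and their exon log2 fold changes were -0.046 and 0.028.

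Levels between genes, compared per length as RPKM, spanned a wide range that both libraries shared. The highest was Setd8 (now Kmt5a), the only known H4K20 monomethyltransferase, at 28.9 RPKM without and 29.5 with cycloleucine. Next came the H3K4 and H3K9 demethylase Kdm1a, also called LSD1, at 21.8 and 21.2 RPKM, and Ehmt2, also called G9a, which dimethylates H3K9, at 20.3 and 19.0. In the untreated library the counting intervals of Kdm1a (21.0 to 22.6) and Ehmt2 (19.6 to 21.0) were close neighbours, and no spread between cultures is available to order them. Suz12, a core PRC2 subunit, was at 17.6 and 18.6 RPKM and Kmt2e at 11.7 and 11.3. These 5 genes were at 10 RPKM or more in both libraries, while Setd1b and Suv420h1 were under 1 RPKM in both. Setd1b, an H3K4 methyltransferase of the COMPASS type, was at 0.153 and 0.181 RPKM from 45 and 63 exon reads, and Suv420h1 (now Kmt5b), which di- and trimethylates H4K20, at 0.708 and 0.725. Both missed the minimum of 1 RPKM and enter no count or median of exon fold changes. The lowest levels above it were those of Whsc1l1 and of Suv420h2 (now Kmt5c), at 1.88 and 1.85 RPKM. The median level of the 39 genes was 5.08 RPKM without and 4.80 with cycloleucine. The order of the genes was nearly the same in both, with a Spearman correlation of 0.985 across the 39 genes, which share both libraries and are not independent.

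**Figure D2:**
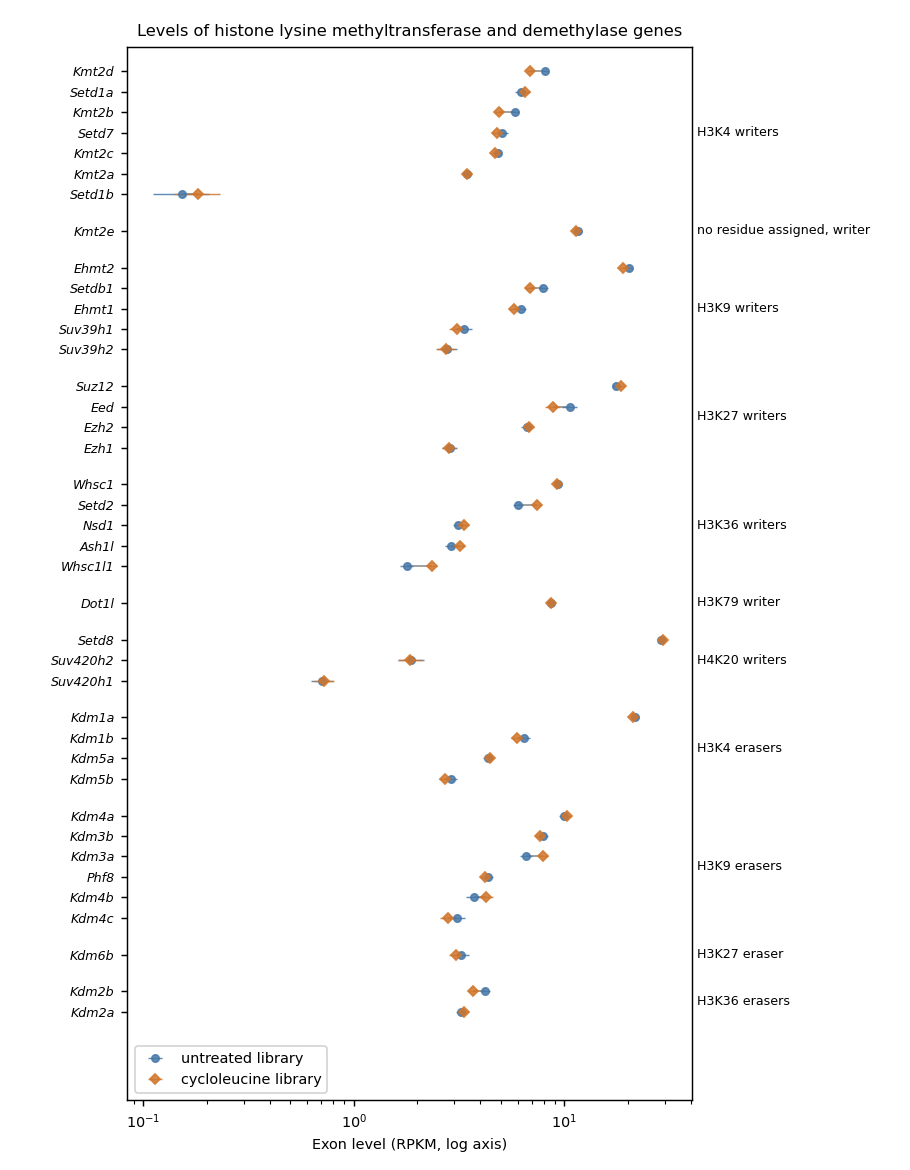
Exon level of each gene in RPKM on a log axis (x axis), with genes grouped by residue and ordered by untreated level (y axis). Circles are the untreated library, diamonds the cycloleucine library, and bars are 95% Poisson counting intervals. Setd8, Kdm1a and Ehmt2 lie farthest right, Setd1b and Suv420h1 lie under 1 RPKM, and most pairs of symbols nearly overlap.

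Among the H3K4 writers, 4 of 6 compared genes were below 0 in exon reads, where 50.9% of all compared features were above it. None was past 1.2-fold, and the median was -0.064. By intron reads 4 of 6 were above 0, with a median of 0.097, where 54.0% of all genes were. By reads across exon-exon junctions 4 of 7 were, with a median of 0.047, where 54.1% of all were. Kmt2d, which writes H3K4 monomethylation at enhancers, was at 8.10 RPKM without and 6.86 with cycloleucine, and its 4372 and 4361 exon reads gave -0.24 (-0.30 to -0.18). Kmt2b, which acts at CpG-rich promoters, was at 5.82 and 4.89 RPKM and -0.25 (-0.36 to -0.15). The exon intervals of both lay wholly below 0. By junction reads Kmt2d was at -0.20 (-0.36 to -0.050). Kmt2b, with 330 and 379 junction reads, was at -0.0026 (-0.22 to 0.21), and its other unique exon reads were at -0.28 (-0.40 to -0.16). In exon reads the closest relatives of Kmt2d and Kmt2b lay nearer 0. Kmt2c, the paralogue of Kmt2d, was at 4.84 and 4.68 RPKM and -0.046 (-0.12 to 0.029). Kmt2a, the paralogue of Kmt2b, was at 3.44 and 3.47 and 0.012 (-0.086 to 0.11). Kmt2d was thus 1.67 times the level of Kmt2c without and 1.47 times with cycloleucine. Setd1a, the catalytic subunit of a SET1 complex, was at 6.21 and 6.50 RPKM (0.064). Setd7, a monomethyltransferase of H3K4 and of non-histone proteins, was at 5.08 and 4.80 (-0.082). Kmt2e, a KMT2 family member with no histone methyltransferase activity assigned here, was at -0.042. Of the H3K4 erasers, 3 of 4 were below 0 in exon reads and the median was -0.060. By intron reads 2 of 4 were below 0, and by junction reads 3 of 4. Kdm1a was at -0.037 (-0.11 to 0.033), its paralogue Kdm1b at -0.11 (-0.25 to 0.026) from 6.46 and 5.98 RPKM. The JmjC enzymes of H3K4 trimethylation were at 0.040 (Kdm5a, 4.33 and 4.46 RPKM) and -0.083 (Kdm5b, 2.88 and 2.71 RPKM). None of these 4 intervals excludes 0.

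In exon reads all 5 H3K9 writers were below 0, where 50.9% of all compared features were above it, and none was past 1.2-fold. By intron reads 2 of the 4 with enough reads were above 0, and by junction reads 1 of the 5 was. The median exon log2 fold change of the 5 was -0.11, and their summed level was 40.6 RPKM without and 37.5 with cycloleucine. Setdb1, which silences retroelements with H3K9 trimethylation, was at 7.96 and 6.86 RPKM, or -0.21 (-0.32 to -0.11) in log2 fold change. Ehmt1, the partner of Ehmt2, was at 6.25 and 5.77 RPKM and -0.11 (-0.23 to -0.0010), and Ehmt2 itself at -0.092 (-0.16 to -0.021). The pair differed alike, with Ehmt2 at 3.25 times the level of Ehmt1 without and 3.30 times with cycloleucine. The heterochromatin enzymes were at 3.34 and 3.09 RPKM for Suv39h1 and 2.78 and 2.73 RPKM for Suv39h2. Their log2 fold changes, -0.11 (-0.29 to 0.073) and -0.026 (-0.24 to 0.19), have intervals that include 0. The H3K9 erasers had a median of 0.00076 and 3 of 6 genes above 0. Kdm3a was the 1 past 1.2-fold, and Kdm3b, its paralogue, was at 7.93 and 7.70 RPKM and -0.042 (-0.14 to 0.058), so the level of Kdm3b was above that of Kdm3a in the untreated library and below it in the cycloleucine library. The Kdm4 enzymes, which act on H3K9 and H3K36 trimethylation, spread to both sides of 0. Kdm4b was at 3.73 and 4.23 RPKM and 0.18 (0.013 to 0.35), Kdm4a at 9.95 and 10.3 and 0.043 (-0.054 to 0.14), and Kdm4c at 3.10 and 2.81 and -0.13 (-0.32 to 0.042). Phf8, an eraser of lower H3K9 and of H4K20 methylation, was at 4.34 and 4.19 RPKM (-0.050). With the Kdm4 genes counted as H3K36 erasers and Phf8 as an H4K20 eraser, the median of the H3K9 erasers is 0.11, over Kdm3a and Kdm3b alone.

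The PRC2 subunits, which together write H3K27 methylation, lay on both sides of 0. Eed was lower, as above, and Suz12, at 0.077 (-0.00096 to 0.16) from 2367 and 2942 exon reads, lay above 0. The ratio of Suz12 to Eed levels was 1.66 without and 2.11 with cycloleucine. The catalytic subunits lay near 0, with Ezh2 at 6.64 and 6.81 RPKM and 0.037 (-0.078 to 0.15) and Ezh1, its paralogue of non-dividing cells, at 2.86 and 2.84 and -0.012 (-0.17 to 0.15). Ezh2 was 2.32 and 2.40 times the level of Ezh1. The one H3K27 eraser of the set, the inducible Kdm6b, was at 3.24 and 3.06 RPKM and -0.084 (-0.25 to 0.074).

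The H3K36 writers had the highest median of the residue classes with at least 3 compared genes, 0.14, and 4 of 5 were above 0. Their summed level was 23.2 RPKM without and 25.6 with cycloleucine, a ratio of 1.10. Beside Whsc1l1 and Setd2, Ash1l, which dimethylates H3K36, was at 2.89 and 3.19 RPKM and 0.14 (0.024 to 0.26), and Nsd1 at 3.13 and 3.35 and 0.093 (-0.020 to 0.21). Whsc1 (now Nsd2), the NSD gene activated by translocation in human myeloma, was the highest of the class at 9.36 and 9.26 RPKM, and its log2 fold change was -0.015 (-0.076 to 0.046) from 4035 and 4704 exon reads. The NSD genes thus spread from near 0 to the top of the set, and Whsc1 was 5.24 times the level of Whsc1l1 without and 3.93 times with cycloleucine. The H3K36 erasers went apart, with Kdm2b, a subunit of a variant Polycomb complex, at 4.20 and 3.69 RPKM and -0.18 (-0.30 to -0.079), and Kdm2a at 3.24 and 3.33 and 0.037 (-0.071 to 0.15). With genes placed by their second residue, which adds Kdm4a, Kdm4b and Kdm4c and removes Kdm2b, the median of the H3K36 erasers went from -0.073 to 0.040.

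Dot1l, the H3K79 methyltransferase, was at 8.61 RPKM without and 8.68 with cycloleucine, and its 2034 and 2415 exon reads gave 0.011 (-0.074 to 0.097). The H4K20 writers lay as close to 0, with Setd8 at 0.028 (-0.040 to 0.097) and Suv420h2 at -0.019 (-0.30 to 0.26) from 204 and 237 exon reads. The interval of Dot1l bounds any difference between these libraries to under 1.2-fold, while that of Suv420h2 does not. Over both kinds of enzyme, writers had a median of -0.017 over 24 genes and erasers one of -0.042 over 13. Past 1.2-fold there were 2 higher and 1 lower writers, and 1 higher eraser. Summed levels were 187 and 184 RPKM for writers and 81.8 and 81.6 for erasers. Neither kind stood apart from the other by these values, and the difference between them was not tested.

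Intron reads, which unspliced RNA gives, varied more than exon reads and largely apart from them. Of 36 genes with at least 100 intron reads over both libraries, 5 were at least 1.2-fold higher and 4 lower, where 21.1% and 16.2% of all genes compared were. None of the 36 was past 1.5-fold, where 4.60% of all were higher and 3.54% lower. The median intron log2 fold change was 0.058, against 0.030 for all genes. The higher genes were Kdm3a, Kmt2b, Ezh2, Nsd1 and Ezh1, and the lower ones Setd1a, Kdm6b, Kdm2a and Kdm1a. Among them the intervals of Ezh1, at 0.29 (-0.064 to 0.66), and of Kdm6b, at -0.38 (-0.84 to 0.083), include 0. Exon and intron changes had the same sign in 17 of 35 genes with both, and their Spearman correlation across these genes was 0.0913, as a description of genes that share both libraries. Across all 6723 such genes it was 0.165. Most genes of the set had fewer intron than exon reads, as Kmt2b with 83 and 143 against 1515 and 1499. Fewer reads widen the counting error and lower such a correlation, and how much of the spread this makes up was not tested.

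Kmt2b had 83 and 143 intron reads, or 0.55 (0.15 to 0.96), beside its lower exon reads. Its junction reads were at -0.0026 (-0.22 to 0.21). Its ratio of intron to exon reads differed by 0.80 (0.52 to 1.08) on the log2 scale, the 1 value of the set past 1.5-fold, where 5.16% of 6803 genes were higher and 3.51% lower. Introns made up 5.19% of its gene reads without cycloleucine (4.16% to 6.40%, Clopper-Pearson) and 8.71% with it (7.39% to 10.2%). For Ezh2, with 176 and 296 intron reads, the ratio differed by 0.47 (0.27 to 0.68), and for Kmt2d, with 265 and 350, by 0.40 (0.24 to 0.57). Kdm2b was next, at 0.38 (0.21 to 0.56). In these genes the intron share was higher in the cycloleucine library. The lowest ratio change was that of Whsc1l1, at -0.50 (-0.66 to -0.35), with 475 and 520 intron reads. Its exon reads were higher while its intron reads were at -0.11 (-0.29 to 0.077), so the intron share was 37.3% without and 29.5% with cycloleucine. Setd2 did not show this, with 253 and 347 intron reads and a ratio at -0.088 (-0.26 to 0.088). Setd1a followed Whsc1l1 at -0.47 (-0.70 to -0.24), but at -0.16 from uniquely placed reads. Kdm2a was at -0.42 (-0.56 to -0.27), with 504 and 457 intron reads, and Kdm1a at -0.29 (-0.43 to -0.15), with 477 and 447. Over the 36 genes with enough reads, 10 ratios were at least 1.2-fold higher and 5 lower, where 21.8% and 17.6% of all were, and the median was 0.056 against 0.022. Suv420h2 had too few intron reads for this comparison, 60 and 32, and its intron log2 fold change was -1.13 (-1.81 to -0.50). Phf8 had the largest intron share of the set, 63.6% and 67.2%, and Ehmt2 the smallest, 3.36% and 4.19%.

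**Figure D3:**
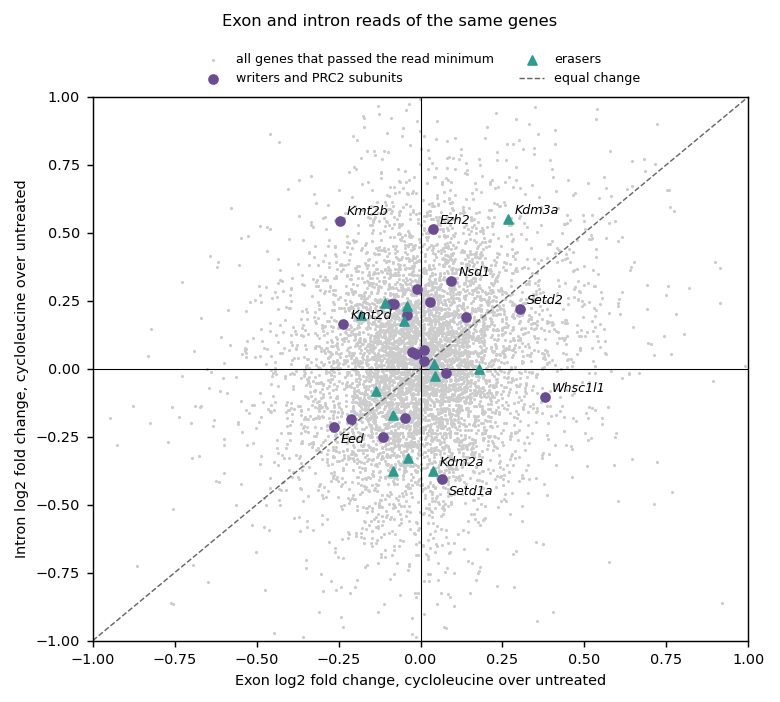
Exon log2 fold change (x axis) against intron log2 fold change (y axis) of the same genes, cycloleucine over untreated, with 1 library per group. Purple circles are writers and PRC2 subunits, green triangles erasers, grey points all genes that passed both read minimums, of which 65 lie beyond the axes, and the dashed line marks equal change. Kmt2b lies left of 0 and high, Whsc1l1 right of 0 and just below the axis, and Kdm3a alone of the labelled genes is past 1.2-fold on both axes.

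Reads across exon-exon junctions come from spliced RNA and were compared after scaling by uniquely placed gene reads. All 39 genes had at least 50 over both libraries, and 6 were at least 1.2-fold higher and 2 lower, where 20.3% and 16.0% of all genes were. Kdm3a was the 1 gene past 1.5-fold, where 5.78% of all genes were higher and 3.94% lower. It had 218 and 446 junction reads, or 0.83 (0.59 to 1.07). Its other uniquely placed exon reads, 662 and 805, were at 0.080 (-0.070 to 0.23). Junction reads thus made up 24.8% of its unique exon reads without cycloleucine (22.0% to 27.8%) and 35.7% with it (33.0% to 38.4%). The log2 change of junction to other exon reads was 0.75, number 84 from the top of 6280 genes with at least 100 reads of each kind, whose middle 95% lay between -0.67 and 0.63. Kdm3a was the 1 gene of 34 in the set past 1.5-fold in this ratio, where 3.14% of all were higher and 3.58% lower. This ratio was added after the values were seen. Whsc1l1 was higher in both kinds of read, with 150 and 246 junction reads at 0.51 (0.21 to 0.81) and other exon reads at 0.42 (0.27 to 0.57). In Setd2 the junction reads, 195 and 243, were at 0.11 (-0.16 to 0.39) and the other exon reads at 0.37 (0.27 to 0.48). Phf8 was lowest, with 287 and 257 junction reads at -0.36 (-0.61 to -0.11). Eed had 226 and 230, at -0.18 (-0.45 to 0.094). Exon and junction changes had a Spearman correlation of 0.626 across 37 genes, in which junction reads are a part of the exon reads.

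The levels of a few genes rest on how their reads were placed. At least 95% of exon reads were uniquely placed in 27 of the 39 genes in the untreated library, and under 50% in 3: Suv39h1 (13.6%), Setd1a (34.3%) and Suv420h1 (42.1%). Setd1b had 37 and 47 uniquely placed exon reads, and all of them crossed junctions. Of the 65 and 71 unique exon reads of Suv39h1, 61 and 58 did. A junction share of at least 80% was found in 2.78% of 9777 genes with several exons, whose median share was 21.7%. Both genes lie across from a noncoding feature on the opposite strand. Setd1b, at chr5:123142193-123167435 on the plus strand, lies wholly inside the lincRNA Gm26745, which had 3 and 0 exon reads but 1381 and 1559 intron reads. Suv39h1 shares 99.0% of its span with Gm14820 (290 and 433 intron reads). Suv420h1 shares 38.7% with Gm16066, which had 3 and 9 exon reads and 437 and 642 intron reads. Setd1a shares 61.9% with Hsd3b7. Whether reads of these enzymes were counted to the overlapping features was not tested, so the low levels of Setd1b and Suv420h1 are levels of what the table counted. From uniquely placed reads alone the level of Suv39h1 was 0.455 RPKM without and 0.422 with cycloleucine, and that of Setd1a 2.13 and 2.07. By junction reads per kilobase of exon and 1000000 unique gene reads, Setd1b was at 0.195 and 0.215 and Suv420h1 at 0.194 and 0.173, still the lowest of the set, whose median was 1.5 and 1.45. Suv39h1 was at 0.662 and 0.547 on that scale. These overlapping features were singled out after their values were seen.

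**Figure D4:**
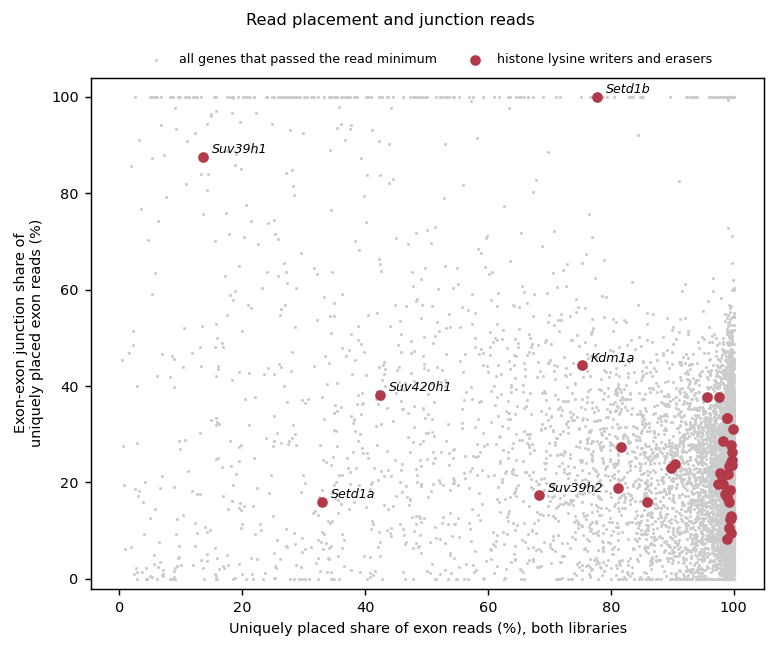
Share of exon reads placed uniquely (x axis, %) against the share of unique exon reads that cross exon-exon junctions (y axis, %), over both libraries together. Red points are the writer and eraser genes and grey points all genes with several exons and at least 50 unique exon reads. Most red points crowd at the lower right, while Setd1b lies at the top and Suv39h1, Suv420h1 and Setd1a lie to the left.

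Partner subunits and related genes outside the set had a median near 0 and spread more widely, from -0.65 to 0.62. Of 54 listed genes 43 could be compared, with a median of -0.033, 4 at least 1.2-fold higher and 2 lower, again under the 13.0% and 11.0% of all compared features. In exon reads 9 of 11 partners of the KMT2 enzymes were below 0, with a median of -0.039, where 50.9% of all compared features were above it. By intron reads 6 of 10 were above 0, with a median of 0.13, where 54.0% of all genes were. Cxxc1, the CpG-binding subunit of the SET1 complexes, was the 1 past 1.2-fold, at 14.7 and 12.2 RPKM and -0.27 (-0.40 to -0.14). Core subunits shared by all KMT2 complexes lay near 0, with Wdr5 at -0.011 (-0.11 to 0.091) and Rbbp5 at -0.030 (-0.14 to 0.085). Partners of PRC2 had a median of -0.045 over 6 genes and partners of Kdm1a one of -0.079 over 7. None of either list was past 1.2-fold, and the largest differences were Mtf2 at 0.18 (0.020 to 0.36) and Rcor3 at -0.19 (-0.40 to -0.0048). Among 6 chromodomain proteins that read these marks, the median was 0.23, or 0.011 with an RPKM minimum of 5. Cbx2 and Cbx8, subunits of Polycomb repressive complex 1, which binds H3K27me3, were at least 1.2-fold higher. Cbx2 was at 2.00 and 3.13 RPKM, from 231 and 426 exon reads, or 0.62 (0.41 to 0.88). Cbx8 was at 1.49 and 2.19 RPKM and 0.52 (0.25 to 0.85). The heterochromatin protein genes of the same list, which bind methylated H3K9, were at -0.015 (-0.14 to 0.11) for Cbx1, -0.14 (-0.24 to -0.033) for Cbx3 and 0.037 (-0.039 to 0.11) for Cbx5. Cbx6 and Cbx7 were under 1 RPKM in both libraries. Among other methyltransferases, Setdb2 was at 3.85 and 5.01 RPKM and 0.37 (0.20 to 0.56), while Setd6, which methylates non-histone proteins, was at 4.04 and 2.55 RPKM and -0.65 (-0.98 to -0.36), from 205 and 152 exon reads. Of the other demethylases, 5 were compared and none was past 1.2-fold. Kdm6a, the constitutive H3K27 demethylase, was at 0.014 (-0.16 to 0.19), and Phf2 had the largest difference, -0.16 (-0.31 to -0.022).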

How the data were processed

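The deposited table lists 43346 features with, for each library, exon and intron read counts, totals and uniquely placed reads. Per the file headers the authors gave counts of reads and RPKM. RPKM, as deposited, equals exon reads per kilobase of exon and per 1000000 gene reads in all 43346 features of both libraries when recomputed. The build is mm10, per the submitters' processing notes. No source used here names the aligner, the counter, the annotation release or the strand setting. The deposited starts count from 0, and 1 was added.

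Exon fold changes are differences of log2(RPKM + 0.1), so those of low genes are understated, over the 9613 features that reached 1 RPKM in 1 library or both and had 50 exon reads or more in total. Intron changes needed 100 intron reads, ratio changes also 200 exon reads, with 0.5 added to counts, and junction changes 50 junction reads. With 1 library per group no test was possible. Changes past 1.2-fold and 1.5-fold were counted and set beside the same share of all features. Intervals for levels are exact Poisson and those for fold changes and shares exact binomial. Those for intron to exon ratio changes are normal approximations from the intron and exon counts. The fold change intervals use read counts with nothing added. The fold changes themselves have 0.1 RPKM or 0.5 counts added, so they need not lie at the centre of their intervals. All are at 95%. A count of 0 allows up to 3 counts.

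The 39 genes and the gene lists were chosen with earlier results of these data known. Full values are given for the 5 highest and 5 lowest exon changes, the 4 highest and 4 lowest ratios and levels, every gene past 1.2-fold or under the minimum and, of each partner list, those past 1.2-fold or the largest change, and not every gene that meets this rule is reported here. Other settings for the pseudocount, filter, scaling, placement and residue were tried. Promoter windows are from RefSeq (GRCm38.p6), with no window for 12 of the genes. No column of other samples was present. The scripts were tested on simulated data and run with Python 3.11.15, numpy 2.4.6, pandas 2.3.3, scipy 1.17.1 and matplotlib 3.10.9.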

Additional observations from a re-analysis of the deposited data

How the results depend on the processing

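Of 202 counts and medians under other settings, 185 stayed close to the reported value and 17 moved. The count of writers and erasers at least 1.2-fold lower, reported as 1, was 0 with a pseudocount of 1, 0 with uniquely placed reads and 3 with libraries scaled by exon reads. The count at least 1.2-fold higher, reported as 3, was 2 with a pseudocount of 1, a trimmed mean of log ratios, exon-read scaling or an RPKM minimum of 5. None of these settings brought a gene of the set past 1.5-fold. With genes placed by second residue the median of the H3K36 erasers changed sign, from -0.073 to 0.040, and that of the H3K9 erasers was 0.11. The median of the chromodomain readers was 0.011 with an RPKM minimum of 5 and 0.084 with no filter. For the partner lists, at least 1.2-fold higher, the counts were 2 with an RPKM minimum of 5 and 8 with no filter. At least 1.2-fold lower there was 1, reported as 2, under either a pseudocount of 1 or an RPKM minimum of 5. At 1.5-fold the higher count was 0 with a pseudocount of 1, 2 with uniquely placed reads, 0 with an RPKM minimum of 5 and 2 with no filter, and the lower count was 0 under the first and the third of these. A higher pseudocount shrinks changes of low genes, a stricter filter tests fewer genes, and otherwise the cause was not tested. Among single genes, Whsc1l1 was at 0.27 with a pseudocount of 1, and the intron to exon ratio of Eed changed sign, from 0.055 to -0.20, with uniquely placed reads. The settings on genes with at least 50% uniquely placed reads and on a background with the read total of the least read gene as its floor were added once the data had been seen. No paired analysis was possible because there was 1 library in each group. Differences within these intervals were not detectable at this depth, and the spread between cultures is unknown.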
